A study of Mus musculus with 29 samples.

Results

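Bc1 is one of 7 groups of B cells that the study's authors marked in mouse peripheral blood. Its members were taken from the deposited cell annotation as every blood cell with the parent class Bc and the subtype name Bc1. They numbered 8476 of 18339 blood B cells (46.2%), of 51709 annotated blood cells (16.4%) and of 106977 annotated cells in the 29 brain and blood libraries of the series (7.92%). The study profiled single cells by Drop-seq, in which each cell is caught in a droplet with a barcoded bead and its transcripts are counted per cell, after experimental stroke or a sham operation. Bc1 was read in all 11 blood libraries of C57BL/6J male mice aged 8 to 10 weeks, of which 4 were sham at day 2, 4 stroke at day 2 and 3 stroke at day 14. Each library pooled blood of 2 mice, with 0.5 ml drawn per mouse from the heart under pentobarbital anaesthesia. All of these groups were treated alike during isolation with Brilliant Blue G, an antagonist of the P2X7 receptor, and actinomycin D, which blocks RNA polymerase, and red cells were lysed and then depleted with Ter-119 beads. No sham group at day 14 was among the samples, so a difference between stroke at day 14 and sham holds both the operation and the time. Beyond the pools, nothing states how the libraries were separated, so p-values measure the spread between these pools.

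Most B cells in blood are naive follicular cells that travel between lymphoid organs and have not yet met antigen. They carry IgM and IgD made from one heavy-chain transcript by alternative splicing, join each heavy chain to a kappa or a lambda light chain, and signal through the Cd79a and Cd79b subunits of the receptor. Younger, transitional B cells still hold transcripts of the pre-B cell stage and carry more IgM than IgD, while B-1 and memory-like B cells are marked by cytoskeletal and S100 genes.

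The markers fitted the B cell label. Ighd, the constant region of IgD, had a value over 0.5 in 77.1% of Bc1 cells (exact 95% interval 76.2% to 78.0%, counting error only) and in 0.0433% of T cells, at median depths of 388 and 516 counts per cell. Cd79a had such a value in 33.01% of Bc1 cells, 0.0289% of T cells and 0 of 17186 neutrophils, which allows up to 0.0215% with such a value and sets no limit on cells that express the gene. Cd74, the chaperone of MHC class II, had one in 98.7% of Bc1 cells. Ighm was less clean, at 67.2% of Bc1 cells and 16.7% of T cells. At least 1 of the CD3 genes Cd3e, Cd3d and Cd3g, which mark T cells, was seen in 0.802% of Bc1 cells against 65.3% of T cells.

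Bc1 cells were shallow. Their median was 388 counts and 311 genes per cell, below the medians of the other 6 B cell subtypes (406 to 527 counts and 323 to 414 genes), and 29.4% of them held at least 500 counts. Mitochondrial counts made up a median of 4.62% in Bc1 and 4.33% to 4.88% in the others. The libraries gave 246 to 1451 Bc1 cells and 89607 to 582973 summed Bc1 counts, with the fewest of both in stroke day 2 replicate 2. In stroke day 2, the median depth of Bc1 was 302 counts in replicate 3 and 329 in replicate 2 against 558 and 499 in replicates 1 and 4, with mitochondrial shares of 6.25%, 5.56%, 3.25% and 4.42% in the same order. Replicate 3 stood apart from its group by 11.7% neutrophils, where the other 3 libraries held 54.4% to 69.6%. The 12-base cell barcode of 22 Bc1 cells recurred in another blood library, and no pair of libraries shared more than 7 barcodes. Summed levels of other cell types' markers were low in Bc1 (pooled): 86.5 CPM for 10 T cell genes against 8885 CPM in T cells, and 2.14 CPM for 9 neutrophil genes, with Cxcr2 and Ngp at 0, against 257681 CPM in neutrophils. Few deposited values were whole counts, and the part of the step that made them so in these low sums was not tested.

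The Vpreb3 and Ifit3 promoters are shown because their genes separate Bc1 from 2 of the other subtypes, and they are read again beside the values. Vpreb3 codes for a protein of the pre-B cell receptor's assembly, and Ifit3 is induced by interferon. Each is the 250 bases before the gene's start in RefSeq on GRCm38.p6, on the plus strand. The Vpreb3 window is chr10:75948050-75948299, and capitals mark the octamer ATGCAAAT, the motif bound by octamer factors such as Oct1 and Oct2, on the opposite strand at bases 45 to 38 before the start. The Ifit3 window is chr19:34583279-34583528, and capitals mark both matches to GAAANNGAAA, a form of the interferon-stimulated response element, on the opposite strand at bases 156 to 147 and 122 to 113 before the start.
Vpreb3: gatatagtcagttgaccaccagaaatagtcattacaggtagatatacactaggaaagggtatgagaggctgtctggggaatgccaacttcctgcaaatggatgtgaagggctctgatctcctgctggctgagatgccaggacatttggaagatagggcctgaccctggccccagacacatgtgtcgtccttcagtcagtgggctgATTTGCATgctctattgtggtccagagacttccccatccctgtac
Ifit3: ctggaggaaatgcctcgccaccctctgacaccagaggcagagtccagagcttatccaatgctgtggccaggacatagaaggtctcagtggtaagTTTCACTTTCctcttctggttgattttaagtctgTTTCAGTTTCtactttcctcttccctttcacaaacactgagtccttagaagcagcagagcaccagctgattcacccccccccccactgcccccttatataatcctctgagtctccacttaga
Both strands were searched, and the motifs share no letters in these windows. ATGCAAAT was found in 490 of 27025 promoters of this length (1.81%), in 1 of 8 of the transitional list with a promoter (Vpreb3) and in 1 of 7 of the follicular list (Il4ra). GAAANNGAAA was found in 936 of 27025 promoters (3.46%) and in 7 of 12 of the interferon list with a promoter (Bst2, Gbp2, Ifit1, Ifit3, Igtp, Isg15 and Stat2). A match describes the letters of the window, not a bound site.

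Bc1 held the genes of naive follicular B cells at somewhat higher levels than the remaining B cells (Bc2 to Bc7 summed). Since the authors grouped the cells on these same transcripts, the levels describe the subtype and were not tested. All levels are summed counts scaled to a common total per library (CPM), and ratios are means over the 11 libraries of log2 of Bc1 over the remaining B cells, with 1 CPM added to each. Over every measured gene, 0.373% were higher and 0.505% lower in Bc1 in all 11 libraries. Of 12 follicular genes, 4 were higher in all 11 libraries and 0 were lower in all of them, with a median ratio of 0.27 where the median of all tested genes was 0.03.

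Ighd, one of the markers of Bc1, was among them. Its level in Bc1 was 4165 ± 393 CPM (SD, n = 11), from 3331 to 4755, against 3143 ± 574 in the remaining B cells, a ratio of 0.43 ± 0.32. Fcer2a, the low-affinity IgE receptor CD23 of follicular B cells, stood at 712 ± 129 against 512 ± 115 CPM (ratio 0.49 ± 0.39). Both were higher in Bc1 in every library. In pooled cells Bc5 was close to Bc1 for Ighd (3991 and 4200 CPM) and Fcer2a (655 and 731 CPM), while Bc3 held 1320 and 188 CPM. Ccr7, the chemokine receptor that leads cells into the T cell zone, had a smaller ratio of 0.23 ± 0.27, also above 0 in all 11 libraries. Pooled Bc5 held 272 CPM of Ccr7 where pooled Bc1 held 284. Gpr183, an oxysterol receptor that positions B cells in the follicle, was 221 ± 43.1 against 166 ± 40.9 CPM and higher in 11 libraries, although pooled Bc3 held more (278 against 223 CPM in pooled Bc1). Cd200, an inhibitory surface ligand, was higher in 10 of 11 (0.48 ± 0.26), and pooled Bc5 held more (189.9 against 163 CPM).

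The heavy-chain isotypes moved apart. Ighm, the constant region of IgM, was 3414 ± 363 CPM in Bc1 and 4478 ± 401 in the remaining B cells, a ratio of -0.39 ± 0.08 that was below 0 in 11 of 11 libraries. The quotient of Ighd over Ighm in Bc1 ran from 0.986 to 1.51 across libraries, and in the remaining B cells from 0.365 to 0.889, so the ranges did not meet. In pooled cells that quotient was 1.24 in Bc1, 1.09 in Bc5, 0.903 in Bc7, 0.764 in Bc4, 0.707 in Bc6, 0.677 in Bc2 and 0.296 in Bc3.

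Most receptor and antigen-presentation genes had small ratios. Cd79a was 962 ± 181 CPM in Bc1 and 967 ± 194 in the remaining B cells, a ratio of 0.00 ± 0.15. Of 10 MHC class II genes, H2-Ab1 (5834 ± 746 against 5046 ± 782 CPM) and H2-DMb2, a part of the peptide loader, were higher in all 11 libraries, by 0.21 and 0.20. Among 20 genes of receptor signalling, Cd22, an inhibitory co-receptor, was higher (0.20 ± 0.15) and Cd72, another inhibitory co-receptor, lower (-0.38) in every library. Ms4a1, which codes for CD20, was lower in every library at 2165 ± 304 against 2965 ± 385 CPM. Tnfrsf13c, the receptor for the survival factor BAFF, was lower in 10 of 11 at 367 ± 47.5 against 543 ± 90.7 CPM. In pooled cells Bc1 was not the lowest for Tnfrsf13c (368 CPM, with 184 in Bc3 and 307 in Bc7). The same held for Cd72 (206 CPM, with 46.0 in Bc3 and 199 in Bc5). Nor was Bc1 apart from all others for Cd22 (736 CPM, with 739 in Bc2, 729 in Bc4 and 372 in Bc3).

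Several genes of younger B cells were lower in Bc1 than in the remaining B cells. Of 12 transitional genes, 10 were measured, 5 were lower than in the remaining B cells in all 11 libraries and 0 were higher in all 11. Vpreb3 stood at 222 ± 64.8 against 484 ± 175 CPM, and in pooled cells at 219 CPM in Bc1 against 835 CPM in Bc2. Bc1 was not the lowest, since Vpreb3 was 63.1 CPM in Bc3 and 207 in Bc7, Akap12 was 7.79 in Bc3 where Bc1 held 22.5, and Myb was 1.45 in Bc5 where Bc1 held 2.52. Cd24a, a surface protein that falls as B cells mature, was 243 ± 38.4 against 492 ± 88.9 CPM. Spib, an Ets-family factor, was 111 ± 20.6 against 236 ± 53.5 CPM, and the other two, Akap12 and Myb, had ratios of -1.71 ± 0.64 and -3.09 ± 1.18. Myb, a factor of progenitor cells, was near absent in Bc1 at 2.31 ± 2.76 CPM.

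Of 15 B-1 and memory-associated genes, S100a6, Ahnak and Vim were lower in Bc1 in all 11 libraries and highest in pooled Bc3. Others were level, such as Zbtb20 (83.8 against 86.4 CPM) and Spn (16.4 against 17.2), and Pdcd1lg2 was 27.4 against 17.1 CPM, higher in 7 libraries. S100a6, a calcium-binding protein, was 82.8 ± 31.5 against 439 ± 522 CPM, Ahnak, a large scaffold protein, 53.8 ± 40.6 against 193 ± 191 CPM, and Vim, the intermediate filament vimentin, 306 ± 86.8 against 758 ± 526 CPM. In pooled cells Bc3 held 2313 CPM of S100a6 and 2897 CPM of Vim where Bc1 held 82.4 and 299.5. Bc1 was not the lowest, since S100a6 was 75.2 CPM in Bc2 and 75.4 in Bc5, Ahnak was 33.7 and 30.6 where Bc1 held 56.0, and Vim was 227 in Bc5. Itgb1, the integrin beta-1 chain from a list of trafficking genes, was 58.0 ± 26.2 against 119 ± 75.3 CPM and lower in 11 libraries. In pooled cells Itgb1 was 36.7 CPM in Bc2 and 55.7 in Bc6 where Bc1 held 56.7, and it was highest in Bc3 at 374 CPM.

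Interferon-response genes were low in Bc1, as several were in most subtypes other than Bc5. Of 18, 7 were lower in Bc1 in all 11 libraries and Stat2 alone was higher in all 11. Ifit3, whose promoter is printed above, was 0.558 ± 0.974 CPM in Bc1 and 27.4 ± 16.7 in the remaining B cells. In pooled cells it was 0.698 CPM in Bc1, 0.662 in Bc4, 2.25 in Bc2 and 4.54 in Bc3, against 10.8 in Bc6 and 207 CPM in Bc5. Xaf1, an interferon-induced gene, was 14.7 ± 5.22 against 48.1 ± 11 CPM, and Ifi27l2a 257 ± 77.1 against 519.9 ± 134 CPM. Stat2, a transcription factor of the interferon pathway, was 82.1 ± 17.0 against 66.7 ± 13.1 CPM, and pooled Bc5 held more (136 against 81.4 CPM in pooled Bc1).

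Light-chain counts in Bc1 fell mostly on kappa, with 41628 counts on Igkc and 14862 on Iglc1, Iglc2 and Iglc3 together, where Bc6 held 2306 and 9032. Iglc1, a lambda constant region, was 388 ± 36.2 CPM in Bc1 and 1563 ± 297 CPM in the remaining B cells, a ratio of -1.99 ± 0.26. Of the counts on Igkc and Iglc1 together, Iglc1 took 3.39% in Bc1 (2.98% to 4.15% by library) and 66.4% in Bc6. Igkc had a value over 0.5 in 95.3% of Bc1 cells, and any of Iglc1, Iglc2 and Iglc3 in 72.4%, so single cells scored both light chains and the second value cannot be read as a share of lambda cells. Iglc2 and Iglc3 are near-identical copies whose reads the counting could split. Counts on heavy-chain variable segments were few (4689, or 0.124% of Bc1 counts), and the breadth of the repertoire was not tested. They fell on 79 of 80 Ighv segments, with Ighv1-26 holding the most at 6.53% and the top 5 at 21.2%. All 64 of 64 Igkv segments were seen, led by Igkv10-96 (7.40%) and Igkv6-15 (6.18%). Ighv1-26 ranged from 4.90% to 20.7% across libraries.

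**Figure D1:**
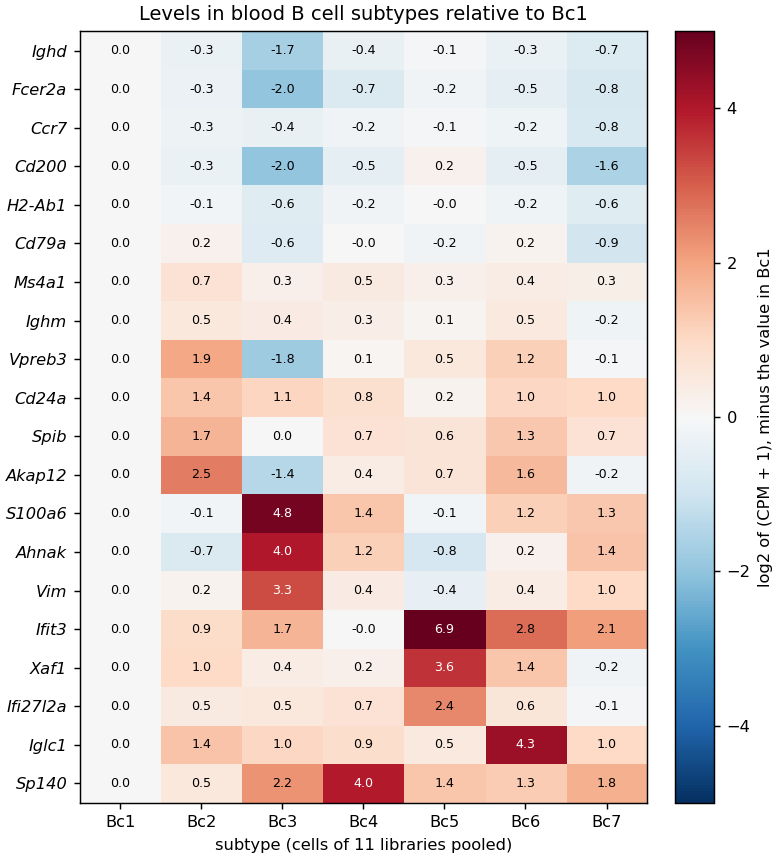
Heatmap of log2 of (CPM + 1) in each blood B cell subtype minus the value in Bc1, for 20 genes in rows and Bc1 to Bc7 in columns, with the cells of 11 libraries pooled. Red is above and blue below Bc1: Vpreb3 is highest in Bc2, S100a6 in Bc3, Sp140 in Bc4, Ifit3 in Bc5 and Iglc1 in Bc6.

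The genes named next were chosen by rank, taking 10 from the top and 10 from the bottom of the mean ratio among genes of at least 50 CPM with the same sign in every library, and they are a description. Of 3616 genes at that level, 52 (1.44%) were higher and 62 (1.71%) lower in all 11 libraries. Of those, 27 were lower by at least 2-fold and 0 were higher by as much. Smad7, an inhibitor of TGF-beta signalling, had the highest ratio, at 60.3 ± 38.0 against 30.0 ± 13.2 CPM (0.92 ± 0.55). Rif1, a DNA repair and replication-timing protein, followed at 107 ± 26.3 against 60.7 ± 18.9 CPM. H2-Eb2, an MHC class II gene, was 161 ± 31.5 against 99.6 ± 37.3 CPM, with 154 CPM in pooled Bc5 and 168 in pooled Bc1. Zfp318, required for the splicing choice that gives IgD, was 506 ± 153 against 340.0 ± 103 CPM, and Tec, a kinase of receptor signalling, 349 ± 72.2 against 238 ± 47.7 CPM, the narrowest spread of the 10 (0.55 ± 0.17). Rflnb, Lrrk2, Casc3, Chd2 and Stat4 made up the rest.

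The genes of lowest ratio were spread over several other subtypes. Sp140, a chromatin reader of immune cells, was 88.9 ± 27.1 against 423 ± 125 CPM (-2.25 ± 0.46) and reached 1459 CPM in pooled Bc4, with 131 to 439 CPM in the other 5 subtypes. Fam129c was 40.9 ± 16.8 against 191 ± 62.3 CPM and was highest in Bc2 at 306 CPM, with 180 to 195 CPM in Bc4, Bc6 and Bc7. Nedd4, a ubiquitin ligase, was 9.52 ± 6.31 against 50.5 ± 15.6 CPM (-2.70 ± 1.62), and was at 0 in Bc1 of at least 1 library. Its ratio was -1.66 with 10 CPM added in place of 1. Ifi30, Ifi213 and Ifi206, all interferon-inducible, had ratios of -1.27, -1.21 and -1.20. Ifi213 and Ifi206 were high in pooled Bc5 (582 and 653 CPM), while Bc1 (49.8 and 67.4 CPM) was above Bc3 (32.7 and 53.8) and Bc7 (39.6 and 53.0) in both. Akap12, Iglc1 and Pafah1b3 were also among the 10. Among cells of at least 500 counts Ifi206 was at -0.14 and Smad7 at 1.602.

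**Figure D2:**
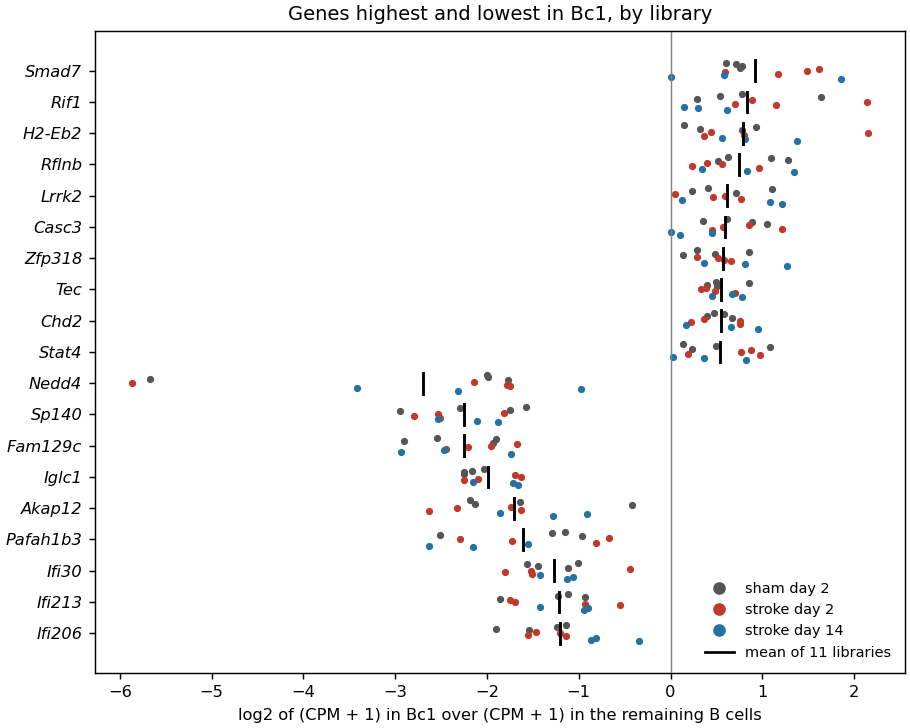
Points give log2 of (CPM + 1) in Bc1 over (CPM + 1) in the remaining B cells for each of 11 libraries (grey sham day 2, red stroke day 2, blue stroke day 14), for the 10 genes of highest mean ratio and 9 of the 10 of lowest, and black lines give the mean. The 10 upper genes lie above 0 and the 9 lower genes below 0 in every library, as the choice of genes requires.

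Distance to the other subtypes was uneven. Between pooled Bc1 and Bc6, 0.569% of genes of at least 50 CPM differed by 2-fold or more, and the share was 0.794% for Bc2, 0.880% for Bc4 and 1.74% for Bc5. It was 6.29% for Bc3 (121 genes higher in Bc1 and 113 lower) and 18.7% for Bc7, a group of 218 cells. In the direction of Bc1, Car2, Cd72, Cd200, Fcer2a and Cr2 were among the 8 largest differences from Bc3. Small groups of cells give wider spread, and the part of that in these shares was not tested.

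Bc1 was the largest B cell subtype in 11 of 11 libraries, and no difference between groups in its share of B cells passed the test. The share was 46.3%, 51.6%, 42.1% and 47.0% in the sham libraries. It was 43.6%, 59.0%, 56.4% and 43.5% in stroke day 2, and 46.0%, 40.9% and 35.3% in stroke day 14. Stroke day 2 held both the highest shares and shares within the sham range, stroke day 14 held the lowest, and every pair of groups overlapped.

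The means were 46.7% ± 3.91 (SD, n = 4), 50.6% ± 8.24 (n = 4) and 40.7% ± 5.36 (n = 3). By an exact two-sided permutation test, adjusted by Benjamini-Hochberg over the 3 contrasts, stroke day 2 exceeded sham by 3.88 points (p = 0.4, adjusted 0.4). By the same exact test the difference of stroke day 14 from sham was -6.02 points (p = 0.114, adjusted 0.257) and from stroke day 2 -9.89 points (p = 0.171, adjusted 0.257). The first difference ran from 1.09 points without stroke day 2 replicate 2 (1.95 without replicate 3) to 6.26 without replicate 4 (6.21 without replicate 1), and was 2.32 without sham replicate 3. The second was -3.30 points without day 14 replicate 3. The smallest p these tests allow is 0.0286 for 4 against 4 libraries and 0.0571 for 3 against 4. Bc3 took 21.1% to 35.0% of the B cells outside Bc1 at day 14, against 5.33% to 22.5% in sham. With Bc3 left out of the total, chosen as an alternative after seeing the data, the differences were 2.69, -1.77 and -4.46 points (adjusted exact p = 0.686 each).

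As a share of all leukocytes, Bc1 varied most within stroke day 2. It made up 16.9%, 20.8%, 13.0% and 23.6% of cells in sham. In stroke day 2 it was 6.00%, 10.4%, 30.1% and 10.7%, and in stroke day 14 17.7%, 13.4% and 17.7%. Replicate 3 held the highest share of all 11 libraries and the other three of its group the lowest. Within sham and within stroke day 2, neutrophil shares had the reverse order. They made up 35.6%, 26.1%, 48.5% and 12.4% of cells in sham, 69.6%, 55.6%, 11.7% and 54.4% in stroke day 2, and 20.9%, 22.4% and 11.4% in stroke day 14. A share falls when another type gains cells, and cell numbers per volume of blood were not among the values used. In edgeR's quasi-likelihood test over 37 blood subtypes, the log2 difference was -0.38 ± 0.52 (SE) for stroke day 2 against sham (adjusted p = 0.789), -0.19 ± 0.56 for day 14 against sham (0.948) and 0.19 ± 0.56 for day 14 against day 2 (0.766). Leaving out single libraries moved these values. Without stroke day 2 replicate 3, the first became -1.04 (adjusted p = 0.126) and the third 0.85 (adjusted p = 0.0966). Without stroke day 2 replicate 1, the first was -0.12 and the third turned to -0.069. With neutrophils left out of the total, the first was -0.079 and the third -0.34. Among cells of at least 500 counts, the first was -0.48, the second -0.085 and the third 0.39. The second ran from -0.33 without sham replicate 3 to -0.053 without sham replicate 4.

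Among cells other than neutrophils, Bc1 made up 25.3% to 28.1% in sham, 19.7% to 34.1% in stroke day 2 and 17.3% to 22.4% in stroke day 14. The day 14 and sham ranges did not overlap (means 19.9% and 26.6%, exact p = 0.0571, the smallest this design allows, adjusted 0.171). edgeR gave -0.42 for that difference (adjusted p = 0.283).

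**Figure D3:**
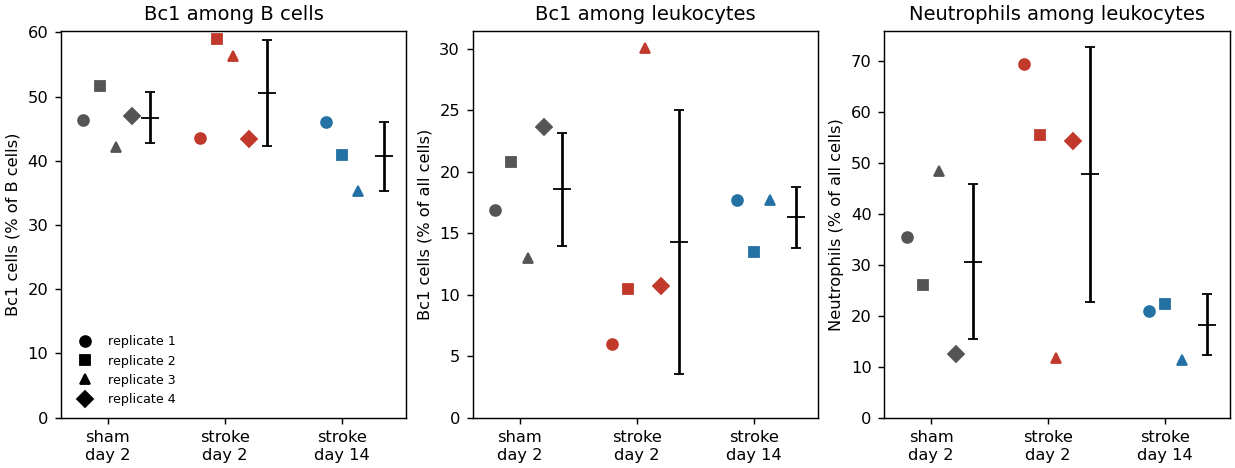
Bc1 as a percent of B cells (left), Bc1 as a percent of all cells (middle) and neutrophils as a percent of all cells (right), with a symbol per library and a bar for mean ± SD beside each group of 4, 4 and 3 libraries. Stroke day 2 replicate 3 (triangle) has 30.1% Bc1 and 11.7% neutrophils, apart from the other libraries of its group.

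Expression within Bc1 did not pass the test between groups. Of 6041 genes tested with edgeR's quasi-likelihood test on Bc1 sums per library, 0 (0%) passed an adjusted p of 0.05 in each of the 3 comparisons, and DESeq2 also called 0 in each. At an unadjusted p under 0.05, 128 genes (2.12%) differed for stroke day 2 against sham, 115 (1.9%) for day 14 against sham and 160 (2.65%) for day 14 against day 2. Libraries did not overlap for 1.62%, 3.72% and 4.35% of genes, and for 2.15% they did not overlap and were higher at day 14 than in sham. Without a filter on low counts (14987 genes), 3 (0.02%), 6 (0.04%) and 10 (0.0667%) genes passed, which were Fkbp5, Igha and Jchain for day 2 against sham, and for day 14 against sham Dusp1, Fos, Igha, Jchain, Wfdc17 (the upward one) and Gm39321. For day 14 against day 2 they were Fkbp5, Ddit4, Dusp1, Zfp36l2, Pik3ip1, Ptpn22, Ppp1r21, Pdcd4, Jun and Gm39321. Those outside the gene lists and the rank rule were named after their values were seen. In sham replicate 2, Igha was 331 CPM and Jchain 117 CPM, against 4.94 to 26.8 and 0 in the other sham libraries. The median standard error of a log2 fold change, worked back from the F statistic of the test, was 0.300, 0.306 and 0.321 in these comparisons. Both stroke times were set against the same sham libraries, so their values are given side by side. The marker Ighd overlapped between all groups: it was 3708, 4330.2, 3898 and 4364 CPM in sham, 3331, 4298, 4755 and 4319 in stroke day 2, and 4349.9, 4044 and 4420.2 in stroke day 14.

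Genes known to respond to glucocorticoids were described as a group. Of a list of 12, 8 were tested and 0 passed in any comparison. The median log2 fold change of these 8 was 0.43 for stroke day 2 minus sham with 8 of 8 above 0, -0.93 for day 14 minus sham with 8 below 0, and -1.39 for day 14 minus day 2 with 8 below 0, where the medians over all tested genes were -0.00, -0.01 and -0.00. These members share libraries and are not independent of each other. The first median was 0.84 without sham replicate 1 and 0.18 without stroke day 2 replicate 2, and the second was -0.61 without sham replicate 1. Summed T cell markers in Bc1 ran from 41.3 to 127 CPM in sham, 60.6 to 157 in stroke day 2 and 24.0 to 81.6 in stroke day 14, and Lyz2, a myeloid gene, reached 83.6 CPM in stroke day 2 replicate 2 and 6.50 CPM in replicate 4. Their part in these values was not tested.

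Fkbp5, a chaperone of the glucocorticoid receptor, was at 40.8, 25.9, 28.7 and 2.25 CPM in sham. It was at 70.2, 259.5, 28.8 and 77.9 CPM in stroke day 2, and at 6.15, 21.1 and 10.4 CPM in stroke day 14. Replicate 2 of stroke day 2, the library with the fewest Bc1 cells and summed counts, was far above all others, replicate 3 lay inside the sham range, and the stroke times did not overlap. The log2 fold change was 1.72 ± 0.60 (SE) against sham at day 2, -1.03 ± 0.79 at day 14, and -2.75 ± 0.73 between the times (edgeR unadjusted p = 0.00146, adjusted 0.9998). The value for day 2 against sham ran from 1.13 to 2.22 over 19 alternative fits. In the remaining B cells Fkbp5 was 64.4, 211.7, 19.7 and 76.1 CPM in stroke day 2 and 7.74, 11.9 and 23.6 in stroke day 14, again with replicate 2 of stroke day 2 the highest.

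Ddit4, an inhibitor of mTOR signalling, was at 38.4, 63.0, 39.3 and 32.1 CPM in sham. It was at 132, 166, 19.3 and 157 CPM in stroke day 2, and at 14.3, 25.4 and 31.9 CPM in stroke day 14. In stroke day 2, replicates 1, 2 and 4 were above every sham library and replicate 3 below them all, while day 14 and sham did not overlap, as for 3.72% of all genes. The log2 fold changes were 1.32 ± 0.47, -0.89 ± 0.59 and -2.21 ± 0.56 in the same order, and none passed. In the remaining B cells Ddit4 was 139, 132, 31.6 and 217 CPM in stroke day 2 and 18.5, 34.0 and 78.4 in stroke day 14, with replicate 3 again the lowest of stroke day 2. Without stroke day 2 replicate 3, which left 5895 genes tested, Ddit4 was the gene that passed for day 2 against sham (1.82 ± 0.26, edgeR adjusted p = 0.0223, 0.017% called). It was then also 1 of 3 that passed between the times (-2.70 ± 0.31, adjusted p = 0.00102, 0.0509% called).

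For the remaining members the groups overlapped more. Tsc22d3, which codes for the glucocorticoid-induced leucine zipper, was 687, 552, 294 and 337 CPM in sham, 704, 1099, 399 and 493 in stroke day 2, and 434, 232 and 393 in stroke day 14. Zfp36l2, an RNA-binding protein that speeds mRNA decay, was 271, 305, 76.0 and 90.6 CPM, then 249.7, 436, 171 and 226, then 58.9, 88.9 and 143. The sham libraries fell into a high and a low pair in both genes, although for Zfp36l2 the stroke times did not overlap. Txnip, Sgk1, Cxcr4 and Dusp1 had log2 fold changes of 0.39, 1.03, 0.18 and 0.20 for stroke day 2 minus sham, and of -0.16, -0.14, -1.22 and -2.57 for day 14 minus sham. Dusp1, a phosphatase that ends MAP kinase signalling, was listed at 0 in 2 of the day 14 libraries. Without the filter on low counts, Zfp36l2 (edgeR adjusted p = 0.000987) and Dusp1 (0.00696) passed between the stroke times, and Dusp1 also for day 14 against sham (0.0191).

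Pik3ip1 and Ptpn22, outside that list, were among the genes of smallest p between the stroke times. Pik3ip1, an inhibitor of PI3 kinase, was 168, 103, 108 and 104 CPM in sham, 279, 380.5, 93.5 and 230.1 in stroke day 2, and 102, 46.3 and 87.4 in stroke day 14. Ptpn22, a phosphatase that restrains antigen-receptor signalling, was 107, 101, 118 and 44.6 CPM, then 246, 341, 60.3 and 182, then 42.0, 63.0 and 50.6. For both, stroke day 2 replicates 1, 2 and 4 were above the other 8 libraries and replicate 3 was not. Their log2 fold changes for day 14 minus day 2 were -1.53 ± 0.39 and -1.87 ± 0.46 (edgeR adjusted p = 0.9998). Without stroke day 2 replicate 3 they were -1.86 (edgeR adjusted p = 0.0323) and -2.26 (edgeR adjusted p = 0.0174). In the remaining B cells Ptpn22 was 104, 129, 78.1 and 64.5 CPM in sham and 73.3, 98.0 and 162 in stroke day 14. It was 186, 394, 49.2 and 172 CPM there in stroke day 2, with replicate 3 again the lowest. Replicate 3 also had the fewest neutrophils of its group (11.7%), and the part of that in these values was not tested.

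**Figure D4:**
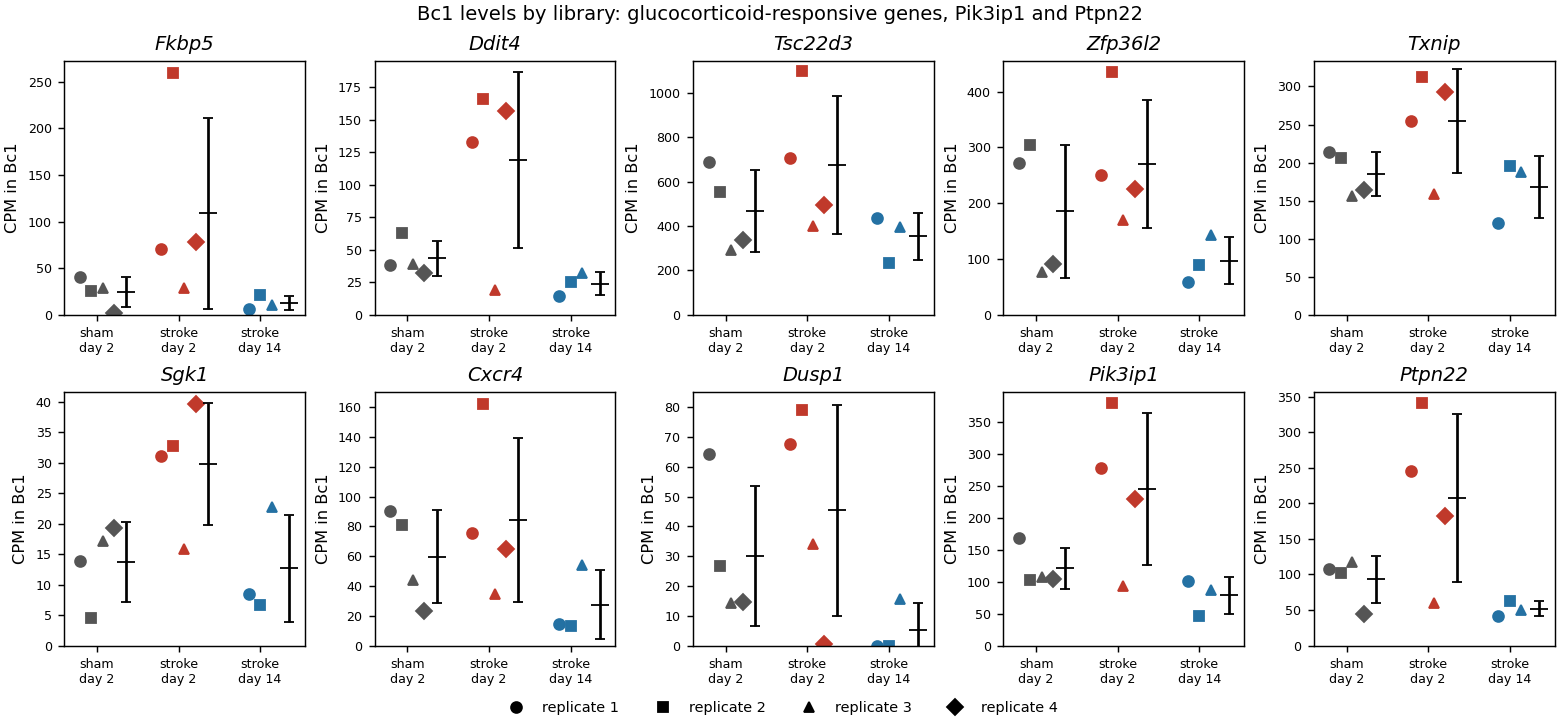
CPM in Bc1 per library for 8 glucocorticoid-responsive genes and for Pik3ip1 and Ptpn22, with a symbol per library and a bar for mean ± SD beside each group (the lower end for Dusp1 at day 14 runs below the axis). In stroke day 2, replicate 3 (triangle) lies below the sham mean for Ddit4, Pik3ip1 and Ptpn22 and the other 3 libraries above it.

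Genes of smallest p in each comparison, none of which passed, are given as values. For stroke day 2 minus sham these were Pdcd4 (0.89 ± 0.27), Cog3 (1.28 ± 0.39) and Wls (1.17) upward, and Cenpa (-1.15 ± 0.30), Ing1 (-0.62 ± 0.20) and Bcl3 (-0.92) downward. Cenpa, the histone variant of centromeres, was 78.8, 62.9, 78.5 and 51.7 CPM in sham, 28.6, 10.9, 34.2 and 33.7 in stroke day 2, and 50, 66.4 and 84.1 in stroke day 14, so all 4 stroke day 2 libraries were below all others (1.62% of all genes did not overlap between stroke day 2 and sham). Myc, which drives growth, was 46.0, 50.7, 34.8 and 25.0 CPM in sham and 14.8, 22.0, 23.8 and 9.61 in stroke day 2, also without overlap, and 25.7, 11 and 33.1 at day 14.

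For day 14 minus sham the upward genes were Rara (1.00 ± 0.26), St13 (0.72) and Hsp90ab1 (0.69 ± 0.21), and the downward genes Zfp326 (-1.03), Hdac9 (-1.06) and Lsm10 (-1.09). Rara, a retinoic acid receptor, was 32.9, 27.4, 39.6 and 38.2 CPM in sham, 23.3, 39.7, 34.8 and 31.2 in stroke day 2, and 72.8, 59.3 and 71.5 in stroke day 14. The 3 day 14 libraries were above the other 8, against 2.15% of genes that were above sham without overlap, and the edgeR adjusted p was 0.999951. For day 14 minus day 2, Tuba1a (0.85 ± 0.22), Cpm (1.04 ± 0.28) and Rara (1.04 ± 0.28) were upward, and Ppp1r21 (-1.58 ± 0.37), Ptpn22 and Pik3ip1 downward. Tuba1a, an alpha-tubulin, was 77.3, 65.4, 85.5 and 68.5 CPM in sham, 62.1, 51.1, 60.3 and 57.9 in stroke day 2, and 109, 95 and 110.3 in stroke day 14, with no overlap between any groups, where the shares over all genes were 1.62%, 3.72% and 4.35%.

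Among homing genes of follicular B cells, Ccr7 and Cxcr5 had their highest group means at day 14. Ccr7 was 349, 230.0, 237 and 305 CPM in sham, 257, 222, 159.8 and 229.9 in stroke day 2, and 335, 379.8 and 333 in stroke day 14. Cxcr5, the receptor that leads B cells into the follicle, was 277, 249.7, 369 and 333 CPM, then 233, 122, 258 and 248, then 286, 448 and 453. The stroke times did not overlap for either gene, as for 4.35% of all genes, and both overlapped sham. The log2 fold changes for day 14 minus day 2 were 0.71 ± 0.22 and 0.81 ± 0.24 (edgeR adjusted p = 0.9998). Of the 12 follicular genes 10 were above 0 in that comparison (median 0.13) and 0 passed, and of the 10 MHC class II genes 10 were above 0 (median 0.14) and 0 passed. The follicular median ran from 0.068 to 0.19 over 13 alternatives. The MHC class II median was -0.04 without day 14 replicate 1.

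The group effect in Bc1 differed from that in the remaining B cells for a small set of genes. In an edgeR test of the difference in group effect, on Bc1 and Bc2 to Bc7 sums with library as a block, 5 of 7125 genes (0.0702%) passed for day 14 against sham, 14 (0.196%) for day 14 against day 2 and 0 (0%) for day 2 against sham. In the last, 305 genes had an unadjusted p under 0.05. S100a6 was 93.3, 113, 105 and 50.8 CPM in sham Bc1 and 40.9, 108 and 121 in day 14 Bc1. In the remaining B cells it was 309, 499, 166 and 251 CPM in sham and 129, 810.2 and 1878 at day 14. The Bc1 ranges overlapped, while replicates 2 and 3 of day 14 stood above every sham library in the remaining B cells. The difference of the effects was -1.52 (edgeR adjusted p = 1.2e-05). Counts of passing genes rested on single libraries: for day 14 against sham 67 passed without day 14 replicate 1, 8 without replicate 2, 1 without replicate 3 and 3 without sham replicate 1. For day 14 against day 2, 64 passed without day 14 replicate 1 and 1 without its replicate 3, and 9, 8 and 3 without replicates 1, 2 and 3 of day 2.

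Crip1, a LIM-domain protein of memory-like lymphocytes, was 729, 693, 883 and 753 CPM in sham Bc1 and 633, 904 and 978 at day 14, against 1387, 1647, 1612 and 1425 and then 1326, 3339.9 and 6018 in the remaining B cells. Its difference was -0.98 ± 0.13 (adjusted p = 4.29e-08) and passed in 11 of 11 fits that left out 1 library, at -0.55 without day 14 replicate 3 and down to -1.39 in the others. S100a6 was -0.77 without day 14 replicate 3 and did not pass. Vim, Tagln2 and Plac8 had differences of -0.77, -1.01 and -0.72 for day 14 against sham and passed in 9 of 11 such fits each, not without day 14 replicate 3 or sham replicate 1. Over these fits Vim ran from -1.03 to -0.48, Tagln2 from -1.23 to -0.61 and Plac8 from -0.88 to -0.48. In day 14 replicate 1 the remaining B cells lay below every sham library for S100a6 (129 CPM), Crip1 (1326 CPM) and Vim (451 against 476 to 656 CPM). Bc3 was 27.8% of them there, 35.0% in day 14 replicate 3 and 5.33% to 22.5% in sham. With Bc3, the subtype that holds most of these transcripts, left out of the remaining B cells, the difference for day 14 against sham was -0.26 for S100a6 and -0.15 for Crip1, and 0 of 6903 genes passed in each of the 3 comparisons (edgeR, smallest adjusted p 0.991, 0.970 and 0.923, and 319, 261 and 295 genes had an unadjusted p under 0.05). For day 14 against day 2, Jade1 was then 1.38 (1.497 with Bc3), Ighv1-18 1.66 (2.02) and Hint1 -0.53 (-0.92). The cause of the differences was not tested. Within Bc1 alone the log2 fold change for day 14 minus sham was -0.01 ± 0.36 for S100a6 and 0.13 ± 0.17 for Crip1 (edgeR adjusted p = 0.999951). Fcer2a differed the other way for day 14 against day 2 (0.56, adjusted p = 0.0457), with 951, 775 and 811 CPM in Bc1 and 690.2, 467 and 282 in the remaining B cells at day 14, against 514, 633, 822 and 548 and then 467, 602, 652 and 418 at day 2. It passed in 4 of 11 fits that left out 1 library, and was 0.27 without day 14 replicate 3 and 0.26 with Bc3 left out (edgeR adjusted p = 0.998).

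**Figure D5:**
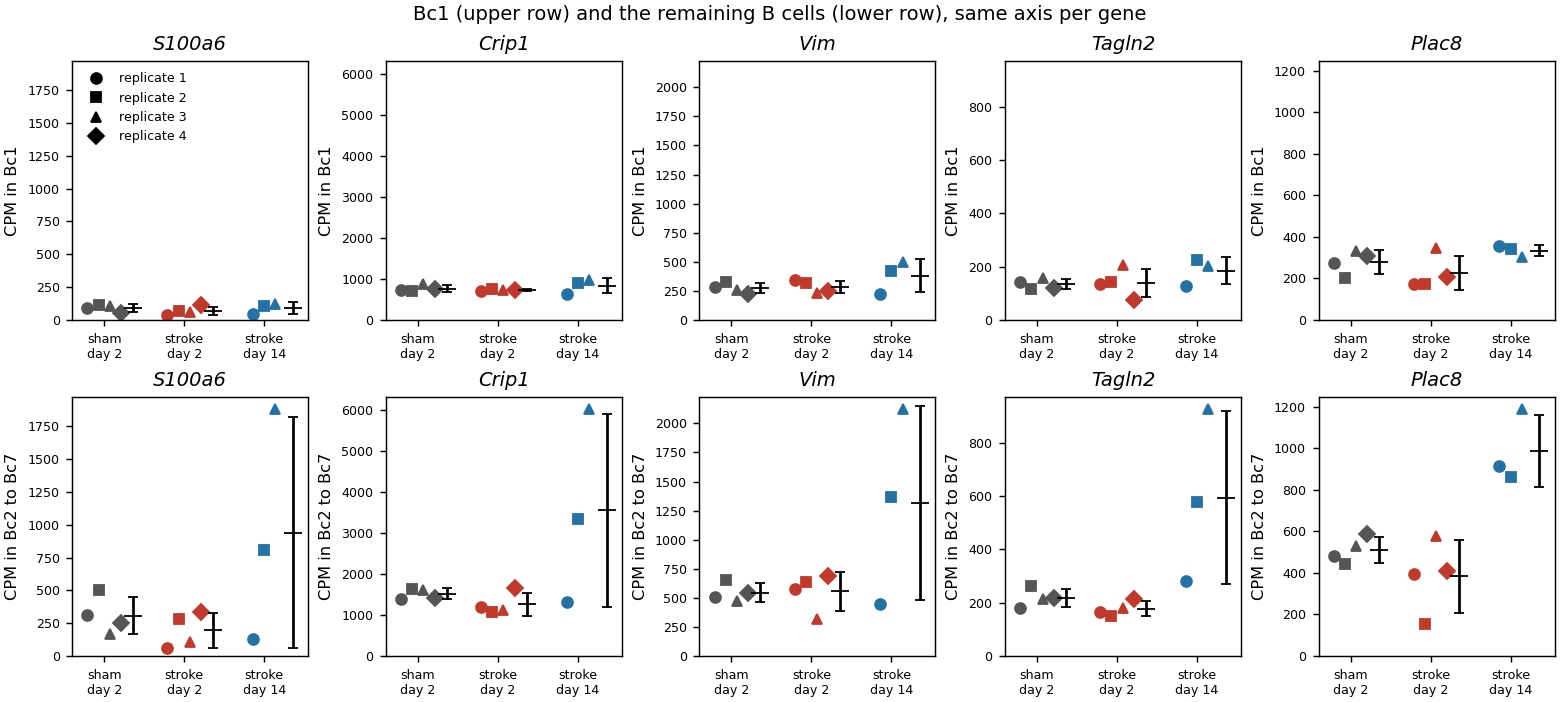
CPM per library of S100a6, Crip1, Vim, Tagln2 and Plac8 in Bc1 (upper panels) and in Bc2 to Bc7 (lower panels), on the same axis for each gene, with bars for mean ± SD. The Bc1 values of S100a6 lie between 38.6 and 121 CPM, and the remaining B cells reach 1878 CPM in stroke day 14 replicate 3.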

How the data were processed

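Drop-seq values of 11 blood libraries were read from the deposited tables, which hold expected counts per gene and cell together with the authors' annotation of parent class and subtype. The submitters' processing notes name Seurat and the build mm10. In Bc1 only 0.725% of nonzero deposited values were whole (within 1e-06), and 86.7% had a fraction over 0.9. The step that made them so is not given in the sources used here, and its part in levels near 0 was not tested. The deposited values were summed over the Bc1 cells of each library, and over Bc2 to Bc7, and rounded. edgeR 4.0.16 in R 4.3.3 (TMM scaling, filterByExpr, quasi-likelihood test, Benjamini-Hochberg) compared the groups, and its other uses were the cell numbers of subtypes and the difference in effect between Bc1 and the remaining B cells. Shares were tested by exact permutation in scipy 1.17.1. DESeq2 1.42.0 was an alternative. Standard errors beside edgeR values were worked back from the test, as the size of the log2 value over the square root of its F statistic. The pipeline was tested on simulated data of 5860 genes. For day 14 against sham, 91.5% of 4-fold (86 genes) and 37.1% of 2-fold changes (36 genes) were recovered, and 11 unchanged genes were called. The simulated libraries shared a mean profile apart from the changed genes, with a spread set only by the level of a gene. Genes or libraries of wider spread were not simulated, so recovery in the real data can be lower.

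Bc1 and the gene lists were chosen with earlier results of these data known. List members may be named; other named genes are the 10 highest and 10 lowest ratios to the remaining B cells (at least 50 CPM, same sign in every library), and in each comparison up to 3 genes per direction of smallest p (at least 20 CPM), leaving out predicted, mitochondrial, ribosomal, haemoglobin, variable-segment and receptor genes and genes over 10 times higher in another blood type of at least 500 cells. Tables of brain cells served only to count annotated cells. Scrublet marked 13 cells (0.0251%, 0 in Bc1), under 0.5%, so it did not work and fits without doublets were not run. The annotation names no technical batch. Same-numbered replicates correlated between -0.42 and 0.48, and not every pair was positive, so the numbers were not treated as pairing the libraries. Values of some named genes are not reported here.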

Additional observations from a re-analysis of the deposited data

Results flagged for a closer look

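3 values stood apart from the rest of their group by the gap to the nearest library, among 86 groups checked, where chance marks about 1 in 20. Igha, the constant region of IgA, was 331 CPM in Bc1 of sham replicate 2 and 4.94 to 26.8 CPM in the other sham libraries. Jchain, which joins IgA and IgM into polymers, was 117 CPM in that same library and 0 in the others. Pik3ip1 was 168 CPM in sham replicate 1 against 103 to 108 CPM in the other sham libraries.

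Differences between the group effect in Bc1 and that in the remaining B cells passed edgeR's test for 5 genes for stroke day 14 minus sham. On the log2 scale, where a negative value means that the change in Bc1 lay below that in the remaining B cells, they were -0.98 for Crip1, -0.72 for Plac8, -1.52 for S100a6, -1.01 for Tagln2 and -0.77 for Vim (adjusted p from 4.29e-08 to 0.00250). For stroke day 14 minus stroke day 2, 14 genes passed. Anxa2 was at -2.96, S100a6 at -1.99, Rassf4 at -1.52, Tagln2 at -1.31, Ptpn22 at -1.30 and Crip1 at -1.14. Hint1 was at -0.92, Vim at -0.82, Plac8 at -0.74 and S100a10 at -0.62. Ighv1-18 was at 2.02, Jade1 at 1.497, Vpreb3 at 0.72 and Fcer2a at 0.56 (edgeR adjusted p of these 14 from 1.16e-09 to 0.0495). Of 11 fits that left out 1 library, Crip1 passed in 11, S100a6 in 10, S100a10 in 5, Fcer2a in 4, Vpreb3 in 3, Jade1 in 2, Anxa2 and Ighv1-18 in 7 and the others in 9. Without stroke day 14 replicate 3, Anxa2 was at -1.90, S100a6 at -1.25, Rassf4 at -0.90, Crip1 at -0.71, Vim at -0.54 and Fcer2a at 0.27. Tagln2 was at -0.84 without stroke day 2 replicate 3, and Anxa2 at -4.75 without stroke day 2 replicate 4. With Bc3 left out of the remaining B cells 0 of 6903 genes passed (smallest edgeR adjusted p 0.970 against sham and 0.923 between the stroke times). Between the stroke times Jade1 was then at 1.38, Ighv1-18 at 1.66, Hint1 at -0.53 and Vim at 0.04.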

How the results depend on the processing

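In Bc1, 0 genes passed between groups by edgeR in each comparison, and also by DESeq2, with library size alone, with DESeq2 size factors, with counts rounded up, with cells of at least 500 counts, with only the compared groups in the fit, and with the start of the study identifier as a term (added after seeing the data). Without a filter on low counts 3, 6 and 10 passed. Leaving out each library gave 0 to 1, 0 to 0 and 0 to 3, and stroke day 2 replicate 3 was the one whose absence gave calls. For the difference from the remaining B cells, leaving out each library gave 1 to 67 calls for day 14 minus sham and 1 to 64 for day 14 minus day 2, and leaving Bc3 out of the remaining B cells (added after seeing the data) gave 0 and 0. The log2 share of leukocytes for day 14 minus day 2 turned to -0.34 with neutrophils left out of the total and ran from -0.069 to 0.85 with a library left out, the lowest without stroke day 2 replicate 1. The cause was not tested. The planned fits without doublets and with a technical batch term were not run.

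With the replicate number as a block, 0, 0 and 0 genes passed in Bc1, and 0, 7 and 15 for the difference from the remaining B cells. The blocked log2 shares of leukocytes were -0.57, -0.20 and 0.37, and of B cells 0.11, -0.23 and -0.34, with no call changed. Of 11 libraries, 5 correlated best with their own number. The median standard error in Bc1, 0.300 to 0.321 on the log2 scale, limits what these sums can show. On simulated data 2-fold changes were recovered at 37.1% for day 14 against sham and 33% for day 14 against day 2 (not simulated for day 2 against sham). The simulated data held no genes or libraries of unusually wide spread.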
